A study of Mus musculus with 1094 samples.

Results

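The 9 genes described here encode the enzymes that make serine from glucose and pass its carbon to folate: Phgdh, Psat1, Psph, Shmt1, Shmt2, Mthfd1, Mthfd2, Mthfd1l and Gldc. They were taken by symbol from the rows of the deposited tables, and all 9 were found among 23078 genes. All 9 also passed the filter on low values that left 14072 genes for testing. The series holds 1094 single cells of the mouse dorsal cerebral cortex, captured on a Fluidigm C1 chip. Cells that share a sorted population and a stage are treated together below and named a library, 17 in all. The 4 libraries of newborn neurons (NBN, 212 cells) covered E16.5 and E18.5, then P1 and P3, and the 5 of basal progenitors (BP, 344 cells) from E12.5, E14.5, E16.5, E18.5 and P0. Both were sorted as GFP-positive cells of Tbr2::GFP mice, whose reporter follows a gene of intermediate progenitors. The 8 libraries of neural stem cells (NSC, 538 cells) were from E10.5, E11.5, E13.5, E15.5, E17.5, E18.5, P0 and P1, and were sorted as GFP-positive cells of Hes5::GFP mice, whose reporter follows a Notch target gene. All mice were on the C57Bl/6 background and labelled wild-type and female, and the labels give no treatment. BP and NBN carry the same reporter, and how they were separated is not given in the labels.

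Phgdh opens the serine pathway by oxidising 3-phosphoglycerate, a glycolytic intermediate, Psat1 adds the amino group and Psph removes the phosphate. Shmt1 in the cytosol and Shmt2 in mitochondria then convert serine to glycine and load a carbon unit on tetrahydrofolate, which the Mthfd enzymes oxidise or reduce for purine, thymidylate and methyl group synthesis, while Gldc is the decarboxylase of the glycine cleavage system. In the brain, serine synthesis is known as a trait of radial glia and astrocytes, and neurons take up much of the serine they use.

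The promoters of Phgdh, Psat1 and Mthfd2 are shown because the levels of Phgdh and Psat1 over the 17 libraries had Pearson's r of 0.81, against -0.10 for Phgdh and Mthfd2 and 0.16 for Psat1 and Mthfd2. Each run is the 250 bases before the RefSeq start of the gene (build GRCm38.p6), 5′ to 3′ on the gene's strand, with matches to CCAAT or its reverse complement in capitals. The end of the Phgdh window reaches into the first exon of the GENCODE M21 model, the Psat1 window lies in an intron of a longer GENCODE transcript, and the Mthfd2 window lies in such an intron too, with its end reaching into the first exon of another model.
Phgdh, chr3:98339970-98340219, minus strand: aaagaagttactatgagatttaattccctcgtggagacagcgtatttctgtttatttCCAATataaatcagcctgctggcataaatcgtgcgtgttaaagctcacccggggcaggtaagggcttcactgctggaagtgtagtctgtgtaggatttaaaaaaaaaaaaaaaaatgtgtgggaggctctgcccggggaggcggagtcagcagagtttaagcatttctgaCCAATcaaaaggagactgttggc
Psat1, chr19:15925060-15925309, minus strand: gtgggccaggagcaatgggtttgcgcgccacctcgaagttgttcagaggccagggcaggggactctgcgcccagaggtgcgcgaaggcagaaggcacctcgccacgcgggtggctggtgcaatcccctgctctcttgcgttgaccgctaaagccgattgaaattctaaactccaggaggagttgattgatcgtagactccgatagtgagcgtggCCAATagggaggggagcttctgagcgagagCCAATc
Mthfd2, chr6:83317605-83317854, minus strand: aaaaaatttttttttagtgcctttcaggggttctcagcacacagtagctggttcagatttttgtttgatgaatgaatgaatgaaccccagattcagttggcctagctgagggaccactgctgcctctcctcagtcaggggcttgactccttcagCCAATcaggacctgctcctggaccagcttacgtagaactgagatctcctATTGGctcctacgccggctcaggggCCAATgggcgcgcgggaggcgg
CCAAT was found on either strand in the windows of 7 of the 9 genes (1 of 2 windows for Psat1), and in 33.8% of 32851 RefSeq promoters of that length. The GC box GGGCGG was found in 6 of 9, against 32.7% of all promoters. Neither the element TGATGNAA that Atf4 is known to bind nor the E-box CACGTG was found in any of the 10 windows, against 3.45% and 6.02% of all promoters. A match is a description of letters, and its absence covers this window only. Phgdh lies on chromosome 3 from 98313170 to 98339990, Psat1 on chromosome 19 from 15904678 to 15947337 and Psph on chromosome 5 from 129765558 to 129787449, all protein-coding genes on the minus strand in GENCODE M21 on GRCm38. Shmt1 lies on chromosome 11 from 60788104 to 60811718, Shmt2 on chromosome 10 from 127517123 to 127522444, Mthfd1 on chromosome 12 from 76255298 to 76319803 and Mthfd2 on chromosome 6 from 83305691 to 83325908. Mthfd1l lies on chromosome 10 from 3973118 to 4167081 and Gldc on chromosome 19 from 30098447 to 30175429. Psph overlaps Cct6a, Shmt1 overlaps Smcr8 and Shmt2 overlaps Ndufa4l2 on the opposite strand, and each remaining member but Phgdh overlaps a pseudogene or a noncoding gene, and the strand setting of the quantification is not given in the sources used here, so their values are uncertain where reads could be shared.

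Levels are in TPM, a share of the cell's transcripts corrected for transcript length, and a cell is said to hold a gene at 1 TPM or more. Some libraries went against their labels. In NSC E15.5, 77 of 86 cells had a neuron profile, meaning that their mean log2(TPM + 1) over a newborn neuron list was above that over a radial glia list, and such cells made up 2.27% (E10.5) to 69.7% (E17.5) of the other NSC libraries. In NSC E11.5, 37 of 59 cells held markers of another cell type, 34 of them erythroid and 12 interneuron markers, and its 8 erythroid markers summed to 4677 TPM, the highest of the NSC libraries. Such markers were held by 20 of 88 cells in NSC E10.5, 18 of them with erythroid markers, and interneuron markers by 0 to 15 cells of each NSC library. NBN P3 did not bear out its label: its cells had a median of 0.53 log2 units over the newborn neuron list, against 5.00 to 7.17 in the other NBN libraries, and 36 of its 40 cells held markers of another cell type. Its 6 microglial markers summed to 6946 TPM, its 6 meningeal markers to 1788 TPM, and its 6 choroid plexus markers to 11360 TPM with 1 cell holding at least 3 of them, each sum being the highest of the 17 libraries. The newborn neuron list was also above the basal progenitor list in the median cell of every BP library, at 4.97 to 7.03 against 1.80 to 3.13 log2 units. The median number of genes per cell lay between 3189 and 5764 over the libraries, which held 39 to 89 cells each, and the depth is unknown because TPM keep none.

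Phgdh had the largest fitted differences from NSC among the 9, in NBN and in BP. It averaged 0.265, 1.15, 70.4 and 359 TPM over the cells of the 4 NBN libraries in order of stage, and 9.36, 19.8, 6.78, 16.1 and 67.3 TPM in BP at E12.5, E14.5, E16.5, E18.5 and P0. In NSC it averaged 68.8 TPM at the lowest (E15.5), 225 TPM as the median of the libraries and 809 TPM at the highest (P1). All 5 BP libraries lay below all 8 NSC libraries, while NBN E16.5 and E18.5 were below every BP library, P1 lay just above the lowest NSC library and P3 among the NSC values. Phgdh was at 1 TPM or more in 23 of 212 NBN cells (10.8%), 21 of 344 BP cells (6.10%) and 262 of 538 NSC cells (48.7%). In each BP library a single cell gave between 43.9% and 86.8% of its Phgdh, and in NBN the cells that held it had medians of 2.29 TPM at E16.5 and 4.62 TPM at E18.5.

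**Figure D1:**
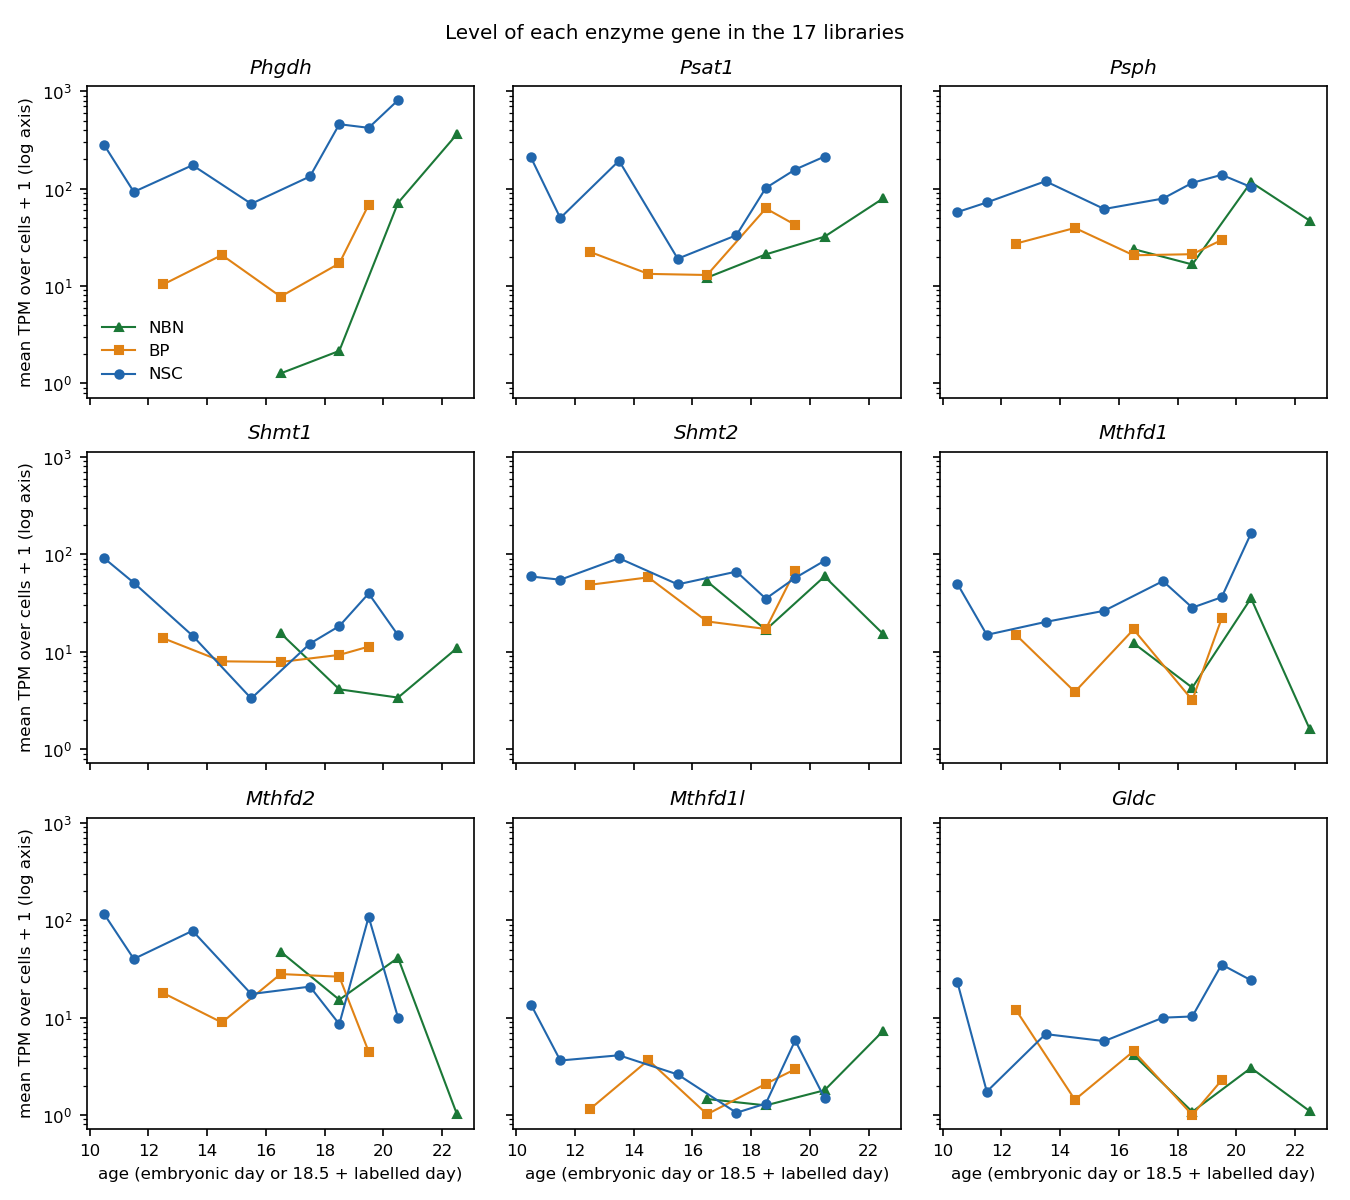
Mean TPM over the cells of a library plus 1 (log axis) against age in days, for each of the 9 genes; green triangles are NBN, orange squares BP and blue circles NSC. Phgdh in BP stays at or below 67.3 TPM, whereas its NSC values start at 68.8 TPM.

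Psat1, the aminotransferase, averaged 11.2, 20.1, 31.1 and 78.4 TPM in NBN in order of stage and 21.5, 12.3, 12.0, 61.5 and 41.5 TPM in BP. In NSC its libraries ran between 18.1 TPM at E15.5 and 212 TPM at P1, with a median of 128 TPM. The groups overlapped, since NSC E11.5 (48.9 TPM), E15.5 and E17.5 (32.2 TPM) fell among the BP values. Psph, the phosphatase, averaged 22.9, 15.6, 115.4 and 45.9 TPM in NBN and 26.3, 38.5, 19.7, 20.2 and 28.6 TPM in BP, and in NSC between 56.4 and 138 TPM with a median of 90.4 TPM. No BP library reached the lowest NSC library, whereas NBN P1 lay inside the NSC range. In that library 6 of 39 cells held Psph.

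The hydroxymethyltransferases had smaller fitted differences from NSC than Phgdh, Psat1 or Psph. Shmt2 averaged 51.8, 15.8, 58.4 and 14.2 TPM in NBN, 47.7, 57.1, 19.5, 16.1 and 67.1 TPM in BP, and 34.1 to 90.4 TPM in NSC (median 57.3 TPM). Its NBN P1 value came to 89.3% from 1 cell and was 6.42 TPM without it. Shmt1 averaged 14.51, 3.12, 2.38 and 9.86 TPM in NBN and 12.8, 6.98, 6.85, 8.29 and 10.3 TPM in BP. In NSC Shmt1 was at 89.9 TPM at E10.5 and 50.1 TPM at E11.5, against 2.31 to 38.7 TPM later. A single cell gave 96.6% of the Shmt1 of NBN P3, 83.5% of that of BP E12.5 and 93.2% of that of NSC P1. Many Shmt1 values were small. At E13.5, 54.4% of NSC cells were at 1 TPM or more and 8.82% at 10 TPM or more, while at E10.5 these shares were 67.0% and 51.1%. The library means of both genes overlapped between all populations.

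Of the folate enzymes, Mthfd1, the trifunctional cytosolic enzyme, averaged 11.3, 3.28, 34.5 and 0.606 TPM in NBN (99.6% of the P1 value from 1 cell), 13.9, 2.88, 16.0, 2.19 and 21.0 TPM in BP and 13.9 to 163 TPM in NSC (median 31.4 TPM). Its highest value, NSC P1, came to 95.2% from 1 cell and was 8.07 TPM without it. Mthfd2, the mitochondrial dehydrogenase and cyclohydrolase, averaged 46.5, 14.2, 40.1 and 0.0308 TPM in NBN (1 cell each at P1 and P3) and 16.9, 7.90, 27.0, 25.3 and 3.47 TPM in BP. In NSC it was highest at E10.5 (113 TPM, 63.6% of cells) and P0 (107 TPM, 14.6% of cells) and lowest at E18.5 (7.56 TPM), so the 2 like means came from many cells at E10.5 and from few at P0. Mthfd1l, the mitochondrial synthetase that releases formate, was low, at 0.253 to 6.30 TPM in NBN, 0.0157 to 2.66 TPM in BP and 0.0526 to 12.6 TPM in NSC, where 27 of 88 cells held it at E10.5. Gldc averaged 3.13, 0.0773, 2.04 and 0.0941 TPM in NBN and 10.9, 0.432, 3.51, 0 and 1.27 TPM in BP. At E18.5, 0 of 62 BP cells held it, which allows a share of up to 4.84% when 3 cells are taken as the limit of a count of 0, and the exact (Clopper-Pearson) upper bound is 5.78%. In NSC Gldc ran between 0.736 TPM at E11.5 and 34.0 TPM at P0.

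The 9 genes were most often found together at the first stage. Cells of NSC E10.5 held 4.99 of the 9 at 1 TPM or more on average, each of the 88 cells held at least 1, and the most held by a cell was 9. The mean was 0.718 in NBN P1, where 23 of 39 cells (59.0%) held none, and 1.06 in BP E16.5, where 10 of 89 cells had under 1000 genes. In the remaining NSC libraries it lay between 1.45 at E17.5 and 3.15 at E13.5. The median number of genes per cell was 5688 in NSC E10.5, 4303 in BP E16.5 and 3189 in NBN P1. NBN E16.5 had a median of 5764 genes and a mean of 1.63 members. The part of gene number in these counts was not tested.

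**Figure D2:**
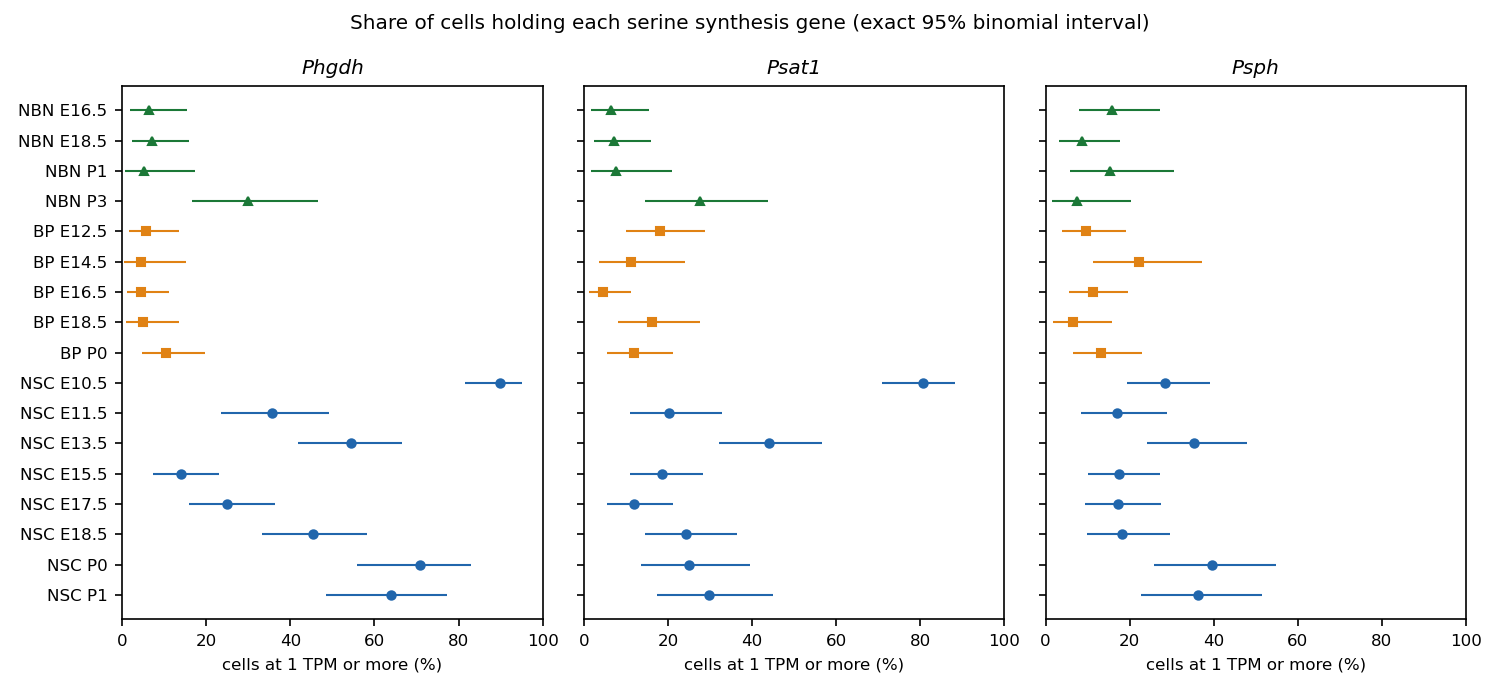
Percent of cells at 1 TPM or more for Phgdh, Psat1 and Psph in each library, NBN above BP above NSC, with exact (Clopper-Pearson) 95% binomial intervals that cover counting error only. Phgdh was in 89.8% of NSC E10.5 cells and in 4.44% to 10.5% of cells of the 5 BP libraries.

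Basal progenitors were set against neural stem cells on log2(mean TPM + 1) per library, with age in days in the fit; on this scale the change of a low gene is understated. All 9 genes had lower fitted values in BP than in NSC, with a median difference of -1.76 log2 units, against 0.13 over all 14072 genes tested. The limma test with Benjamini-Hochberg adjustment over all genes called none of the 9 at 0.05, while it called 0.476% of all genes. Of the 9 members, 5 had an unadjusted p under 0.05, as had 1899 of all 14072 genes. Psph came nearest at -1.76 ± 0.39 (SE), with mean log2 levels of 4.75 ± 0.38 in BP and 6.48 ± 0.47 in NSC (SD, n = 5 and n = 8 libraries) and an adjusted p of 0.0507. Phgdh had the largest difference at -3.79 ± 0.89, with levels of 4.18 ± 1.21 in BP and 7.81 ± 1.23 in NSC (SD, n = 5 and n = 8) and an adjusted p of 0.0731. Mthfd1 differed by -2.03 ± 0.73, Gldc by -1.90 ± 0.74 and Psat1 by -1.89 ± 0.62, with adjusted p of 0.238, 0.275 and 0.201 in the limma test. Mthfd2 (-1.10 ± 0.79), Shmt1 (-1.002 ± 0.63), Shmt2 (-0.69 ± 0.44) and Mthfd1l (-0.61 ± 0.62) differed by less than 2 SE. Phgdh and Psph were the 2 members whose BP and NSC libraries did not overlap, which held in that direction for 0.704% of all genes tested. With 1 library left out, the count called became 2 without NBN E18.5, NBN P3 or NSC E15.5 (Phgdh and Psph each time) and 1 without NBN P1 (Psph). The share of all genes called in these fits is not reported here, so a gain of members cannot be told from a general gain in calls. With neuron-profile cells left out of the NSC libraries, 4 were lower at limma adjusted p of 0.0027 to 0.037: Phgdh (-4.55 ± 0.84), Psat1 (-2.67 ± 0.46), Psph (-2.04 ± 0.47) and Mthfd1 (-2.68 ± 0.75); 2.64% of all genes were called lower in that fit. BP kept its own neuron-profile cells, 81 of 89 at E16.5 to 45 of 45 at E14.5, so for genes that such cells hold less often this setting widens the difference by its construction. NSC E15.5 and NBN P3 were among the libraries that went against their labels, and were picked for leaving out after seeing the data. Without both, 3 were lower, Phgdh (-3.98 ± 0.73), Psat1 (-2.19 ± 0.53) and Psph (-1.83 ± 0.40), beside 2.25% of all genes called lower.

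Labels name no animals or batches, so the p-values measure only the spread between libraries, which may be technical, and a capture cannot be told apart from its population and stage. The share of cells holding Phgdh differed (6.10% in BP, 48.7% in NSC), and the median level among cells at 1 TPM or more was 80.3 to 445 TPM in the 5 BP libraries and 134 to 482 TPM in the 8 NSC libraries, ranges that overlap. In the 4 BP libraries before P0, 2 to 4 cells held it, so these medians rest on few cells.

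Against NSC, newborn neurons had lower fitted values for all 9 genes too, with a median of -1.51 log2 units, against -0.10 over all genes. Phgdh fell by 5.15 ± 1.06 (SE) on the log2 scale (limma adjusted p = 0.0218, and 0.00087 to 0.0813 over the alternatives), with mean log2 levels of 4.02 ± 3.94 in NBN and 7.81 ± 1.23 in NSC (SD, n = 4 and n = 8). The fitted fall is at equal age under 1 slope shared by all populations, so it exceeds that of the mean levels. Slopes fitted per population were unlike, at 1.48 ± 0.22 (SE) log2 units per day in NBN and 0.19 ± 0.10 in NSC. Phgdh was the 1 member called of 9, where 1.66% of all genes were called and 1.26% were called lower. Its groups overlapped, with 2 of 4 NBN libraries below the lowest NSC library, and no member was without overlap, against 1.53% of all genes that were lower without overlap. Of the 9, 5 had an unadjusted p under 0.05, as had 2215 of all 14072 genes. Psph differed by -1.51 ± 0.46 (adjusted p = 0.0984, limma), Mthfd1 by -2.57 ± 0.87, Gldc by -2.50 ± 0.88 and Psat1 by -2.10 ± 0.74. Shmt1 (-1.11 ± 0.75), Shmt2 (-0.85 ± 0.52), Mthfd2 (-0.33 ± 0.94) and Mthfd1l (-0.19 ± 0.74) differed by less than 2 SE. The Phgdh call was lost without NBN E16.5, NBN E18.5 or NSC P1 (limma adjusted p of 0.0813, 0.0784 and 0.0635), with no filter (0.0684) and with cells averaged on the log2 scale (-2.99 ± 0.83, limma adjusted p = 0.0723), and 2 members were called without NBN P1 (Phgdh and Psph). Without both NSC E15.5 and NBN P3, Phgdh (-6.22 ± 0.90) and Psat1 (-2.69 ± 0.66) were lower, beside 3.79% of all genes called lower. With neuron-profile cells left out of NSC, Phgdh (-5.89 ± 1.00), Psat1 (-2.83 ± 0.55) and Mthfd1 (-3.19 ± 0.89) were lower, beside 2.4% of all genes, and here too NBN kept its neuron-profile cells (61 of 63, 64 of 70, 37 of 39 and 9 of 40 in order of stage), which widens the difference by construction. The comparisons of NBN and of BP share the NSC libraries.

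No difference between newborn neurons and basal progenitors passed the test. None of the 9 was called, the smallest limma adjusted p was 0.757, and 0.0142% of all genes were called. None of the 9 had an unadjusted p under 0.05, against 1283 of all 14072 genes. Differences ran between -1.36 ± 1.13 (SE) for Phgdh and 0.77 ± 0.99 for Mthfd2, and these errors leave room for sizeable differences either way.

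**Figure D3:**
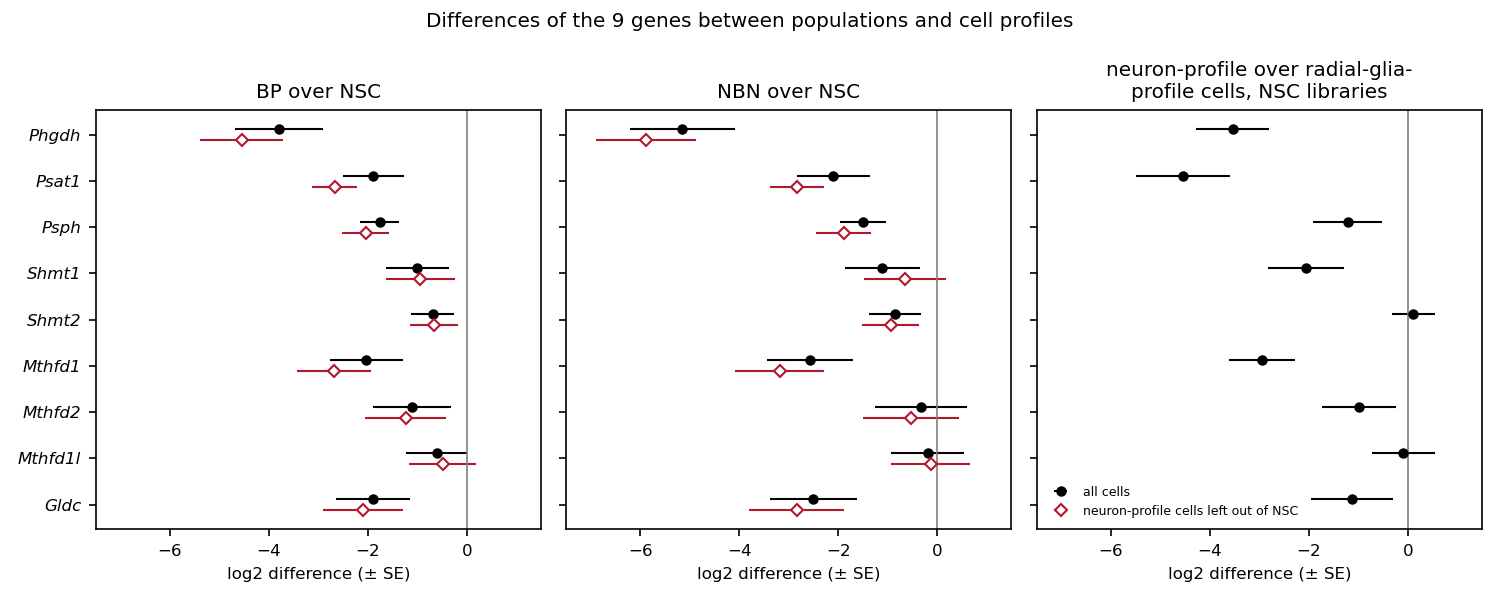
Log2 differences with their SE for the 9 genes: BP over NSC, NBN over NSC, and neuron-profile over radial-glia-profile cells within 5 NSC libraries. Filled points use all cells and open red diamonds leave neuron-profile cells out of NSC but keep them in BP and NBN. The 9 filled points lie below 0 for BP and for NBN over NSC.

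Within the NSC libraries themselves, cells with a neuron profile and cells with a radial-glia profile could be compared side by side, since neither list holds any of the 9 genes. At least 5 cells of each kind were present in 5 libraries, 211 neuron-profile and 144 radial-glia-profile cells in all, and 4 to 17 cells per library lay within 1 log2 unit of the divide, so the classes are ranges of a score and not types. Phgdh averaged 58.0, 96.0, 11.2, 9.20 and 28.9 TPM in neuron-profile cells at E11.5, E13.5, E15.5, E17.5 and E18.5, against 126, 260, 562, 416 and 584 TPM in radial-glia-profile cells. It was lower in neuron-profile cells in 5 of 5 libraries, and 25 of 211 of them (11.8%) held it, against 94 of 144 (65.3%). Psat1 averaged 0.309, 140, 1.95, 10.5 and 0 TPM in neuron-profile cells, against 99.2, 251, 156, 82.3 and 130 TPM in radial-glia-profile cells. It too was lower in 5 of 5, and was held by 11.8% of neuron-profile cells, against 40.3% of radial-glia-profile cells. Mthfd1 averaged 2.25, 13.7, 16.6, 11.3 and 0.411 TPM in neuron-profile cells, against 26.0, 25.5, 101, 146 and 35.3 TPM in radial-glia-profile cells, again lower in 5 of 5, with 13.7% of cells holding it against 27.1%.

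With each library as a block, Psat1 differed by -4.54 ± 0.94 (SE), Phgdh by -3.54 ± 0.74 and Mthfd1 by -2.94 ± 0.67 log2 units, with limma adjusted p of 0.0996, 0.101 and 0.122 over 12349 genes. None of the 9 passed 0.05, while 0.0972% of all genes did. Of the 9, 4 had an unadjusted p under 0.05, as had 1795 of all 12349 genes. The fourth was Shmt1 at -2.06 ± 0.76, which was held by 36.5% of neuron-profile cells, against 52.1% of radial-glia-profile cells. Psph (-1.21 ± 0.70), Gldc (-1.12 ± 0.83), Mthfd2 (-0.99 ± 0.75), Mthfd1l (-0.09 ± 0.64) and Shmt2 (0.11 ± 0.43) differed by less than 2 SE. When cells were averaged on the log2 scale, where a few very high cells weigh less, Phgdh (-4.20 ± 0.36), Psat1 (-2.60 ± 0.30) and Mthfd1 (-1.29 ± 0.28) were lower at limma adjusted p of 0.00042, 0.0011 and 0.0241, and 3.82% of all genes were called lower. Median genes per cell were 3122 to 5280 in neuron-profile cells and 3476 to 5414 in radial-glia-profile cells.

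**Figure D4:**
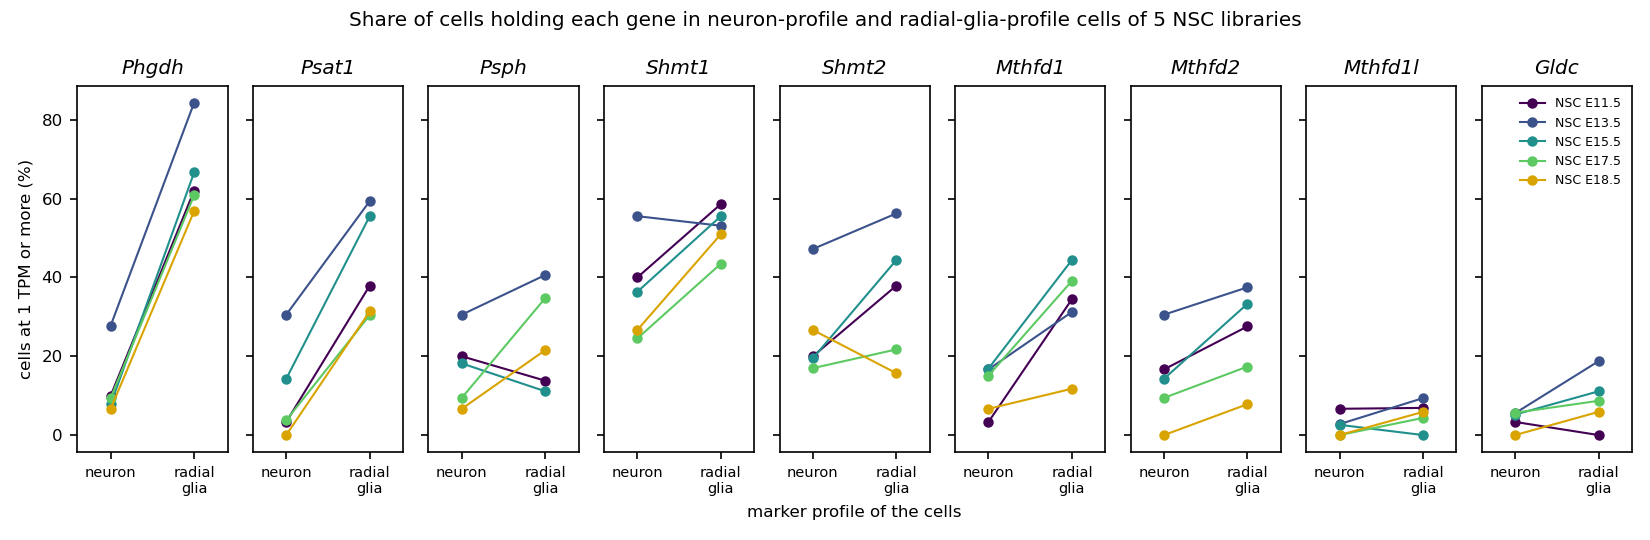
Percent of cells at 1 TPM or more for each gene in neuron-profile (left) and radial-glia-profile cells (right), joined by library for the 5 NSC libraries with at least 5 cells of each kind. Phgdh was held by 6.67% to 27.8% of neuron-profile cells and by 56.9% to 84.4% of radial-glia-profile cells.

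Counted over radial-glia-profile cells alone, the Phgdh mean in NSC was 283, 126, 260, 562, 416, 584, 438 and 785 TPM in order of stage from E10.5 to P1. The value at E15.5, the lowest over all cells, rested on 9 cells. Among cells without markers of another type, Phgdh was held by 5 of 12 radial-glia-profile cells in NBN, 2 of 13 in BP, where these cells had a median of 24 genes, and 197 of 261 in NSC (75.5%). Among neuron-profile cells it was held by 8 of 150 in NBN (5.33%), 16 of 310 in BP (5.16%) and 18 of 166 in NSC (10.8%).

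Age was then asked of each population in turn, with a slope per day. In NSC none of the 9 was called, beside 1.36% of all genes, and the smallest limma adjusted p was 0.349. An unadjusted p under 0.05 was found for 1806 of all 14072 genes and for 1 member, Mthfd1l. Its slope was -0.21 ± 0.09 (SE) log2 units per day, that of Mthfd2 -0.22 ± 0.13 and that of Phgdh 0.19 ± 0.10, none of them past the threshold. Phgdh averaged 277 TPM at E10.5 and 809 TPM at P1, while Mthfd2 averaged 113 TPM at E10.5 and 9.01 TPM at P1. Mthfd2 was held by 63.6% of cells at E10.5 and by 1 of 47 cells (2.13%) at P1. With cells averaged on the log2 scale, 4 members fell with age at limma adjusted p of 0.0029 to 0.047, namely Mthfd2 (-0.27 ± 0.05), Shmt1 (-0.20 ± 0.05), Shmt2 (-0.17 ± 0.05) and Mthfd1l (-0.06 ± 0.02); 13.9% of all genes were called lower in that fit.

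In BP no member was called, the smallest limma adjusted p was 1, and 0.0% of all genes were called. No member had an unadjusted p under 0.05, against 512 of all 14072 genes. Slopes ran between -0.31 and 0.26 log2 units per day. The difference of the BP and NSC slopes was called for none of the 9 (smallest limma adjusted p 1) and for 0.00711% of all genes. For it 1 member, Gldc, had an unadjusted p under 0.05, as had 556 of all 14072 genes.

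In NBN the Phgdh level rose with age by 1.48 ± 0.22 (SE) log2 units per day (limma adjusted p = 0.0228), the 1 member of 9 called, beside 0.448% of all genes in either direction and 0.114% higher. A second, Mthfd2, had an unadjusted p under 0.05 (-0.76 ± 0.30), as had 2769 of all 14072 genes. The 4 library means were 0.265, 1.15, 70.4 and 359 TPM in order of stage, carried by 4, 5, 2 and 12 cells. At P1, 2 of 39 cells held Phgdh, at 1705 and 1040 TPM; both had a radial-glia profile, with a mean of 6.12 and 7.25 log2 units over the radial glia list, and 0 of 33 neuron-profile cells without other markers held it, which allows a share of up to 9.09% by the same limit of 3 cells (exact upper bound 10.6%). At P3, 12 of 40 cells held Phgdh, 10 of them with markers of another cell type, 6 with microglial and 4 with meningeal markers, and those 10 gave 77.2% of the library's Phgdh. A single cell with meningeal markers, at 7124 TPM, gave 49.6%, and without it the library mean was 186 TPM. All 6 microglial and all 6 meningeal markers reached 1 TPM in NBN P3, their sums being 7.60 to 6946 TPM and 4.78 to 1788 TPM over the NBN libraries, and their part in the result was not tested. Mitochondrial genes made up a median of 19.6% of TPM at P1 and 12.7% at P3, against 5.22% to 7.79% elsewhere. The call was lost without NBN P3 (1.45 ± 0.36, limma adjusted p = 0.132), and without NBN P1 Mthfd2 was called as well (-0.93 ± 0.26). With all cells holding other markers left out, the slope was 1.65 ± 0.26 (limma adjusted p = 0.0031). NBN P3 was then 4 cells, all with a radial-glia profile, so that its point held no neuron-profile cell. Neuron-profile cells without other markers averaged 0.298, 1.27 and 0 TPM of Phgdh at E16.5, E18.5 and P1. With cells averaged on the log2 scale the slope was 0.37 ± 0.27 (limma adjusted p = 0.325).

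Since one-carbon units are used in nucleotide synthesis, dividing cells, those with a mean of 2 or more log2 units over a list of G2/M genes, were set against the others of their library. In all, 94 cells lay within 0.5 units of that limit. Phgdh had the higher mean in dividing cells in 11 of 12 libraries with at least 5 cells of each kind, the exception being BP E14.5 with 5 dividing cells. BP P0 and NBN P3 also had 5 dividing cells each, and NSC P1 had 7. Those of NBN P3 included the cell with meningeal markers at 7124 TPM, and those of BP P0 a cell at 2248 TPM. The share of cells holding Phgdh was higher among dividing cells in 10 of 12. By mean, Shmt1 was higher in 10 of 12, and Psat1 and Mthfd2 in 9 of 12 each. The differences were 1.92 ± 0.62 (SE) log2 units for Shmt1, 1.53 ± 0.63 for Phgdh, 1.51 ± 0.81 for Psat1 and 1.26 ± 0.69 for Mthfd2, and those of the other 5 lay between -0.76 and 0.18. The limma fit with a library block called none of the 9 (smallest adjusted p 0.184), against 1.62% of all 14096 genes. Of the 9, 2 (Shmt1 and Phgdh) had an unadjusted p under 0.05, as had 1807 of all genes. Without BP E14.5 Phgdh was called (2.08 ± 0.45), and without NBN P3 Shmt1 was (2.33 ± 0.55). The Phgdh difference was 0.49 ± 0.37 with the limit at 1 and 0.50 ± 0.67 with it at 3. With cells averaged on the log2 scale, Phgdh, Shmt1, Psat1 and Mthfd2 were higher in dividing cells at limma adjusted p of 0.0024 to 0.025, beside 7.07% of all genes called higher.

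Dividing cells also had more genes at 1 TPM or more in 10 of the 12 libraries, and the part of this in the result was not tested. In NSC E11.5, E13.5, E15.5 and E17.5, 29, 35, 75 and 52 cells were non-dividing, and 30, 36, 77 and 53 had a neuron profile. At E10.5, E18.5, P0 and P1 these counts were 7, 47, 14 and 40 against 2, 15, 2 and 4. How far both splits held the same cells was not tested, so NSC differences by division cannot be told apart from those by profile. At E11.5, 19 of 30 dividing NSC held Phgdh, against 2 of 29 of the others, and 11 of 30 held Psat1, against 1 of 29. At P1 Phgdh was held by 3 of 7 dividing NSC, against 27 of 40 of the others. The share of cells holding Shmt1 was higher among dividing cells in all 12 libraries.

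**Figure D5:**
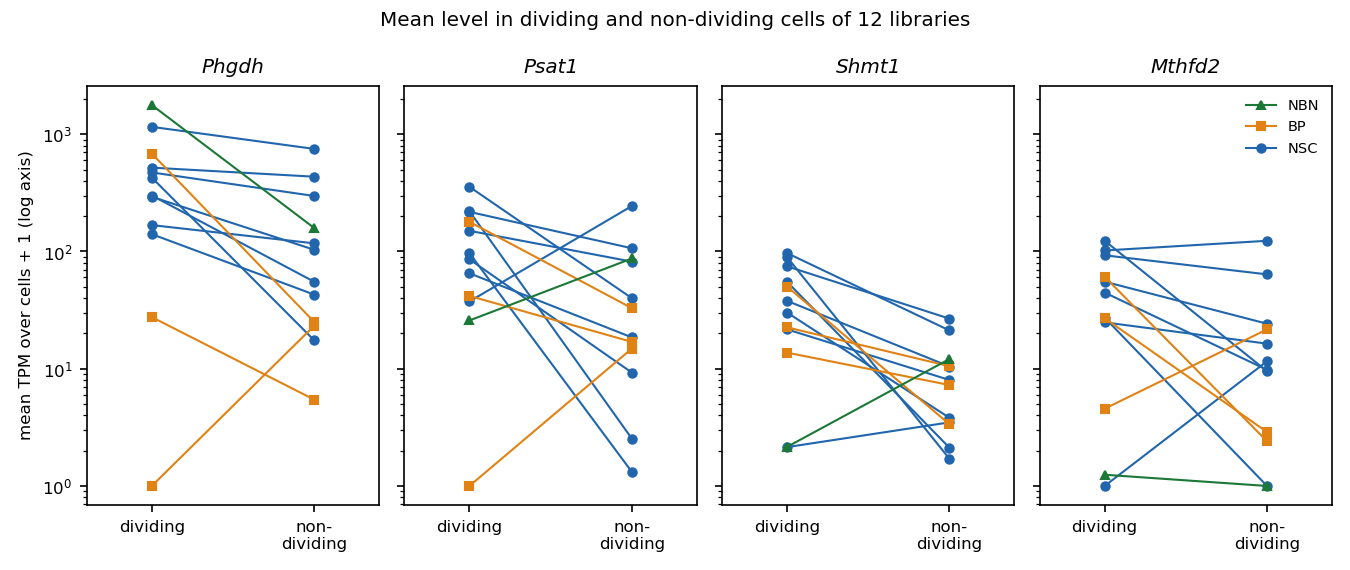
Mean TPM plus 1 (log axis) of Phgdh, Psat1, Shmt1 and Mthfd2 in dividing (left) and non-dividing cells (right) of the 12 libraries with at least 5 cells of each kind, joined by library. Lines that fall to the right are libraries with the higher mean in dividing cells, 11 of 12 for Phgdh and 10 of 12 for Shmt1.

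In NSC, Phgdh and Psat1, consecutive steps, were often found in the same cells. Of the 262 NSC cells with Phgdh 55.0% held Psat1, against 13.0% of the 276 without it, and 80.0% of the Psat1 cells held Phgdh. The share was higher in Phgdh cells in 8 of 8 NSC libraries, for example 42.9% against 7.89% at E11.5 and 35.3% against 0% at P0. Among radial-glia-profile cells of NSC it was 58.5% of 234 cells with Phgdh, against 18.8% of 85 without. Cells with Phgdh had a median of 5015 genes, against 4606 in those without, and more genes in 8 of 8 libraries, and the part of this was not tested. The share was 43.2% against 11.2% with NSC E10.5 left out. Outside NSC, most cells with one of these genes lacked the other. In BP 6 of 21 Phgdh cells held Psat1 (28.6%), against 10.8% of the 323 without Phgdh, and 14.6% of the Psat1 cells held Phgdh. In NBN 8 of 23 Phgdh cells held Psat1 (34.8%), against 7.94% of the 189 without, and 34.8% of the Psat1 cells held Phgdh. Psph was held by 34.4% of the NSC cells with Phgdh, against 16.3% of those without. Mthfd2 was held by 43.9% of the 180 NSC cells with Psat1, against 13.4% of the 358 without, and by 24.8% against 12.9% with NSC E10.5 left out. Its share was higher in Psat1 cells in 5 of 8 NSC libraries, and Psat1 cells had more genes in 7 of 8. Over 538 NSC cells the log2 values of Phgdh and Psat1 had Pearson's r of 0.45 and Spearman's rho of 0.45, and those of Phgdh and Psph 0.20 and 0.23, which share cell, depth and library.

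Across the 17 libraries, log2 levels of Phgdh had Pearson's r of 0.83 with Psph, 0.81 with Psat1 and -0.10 with Mthfd2, and those of Mthfd1 had 0.82 with Gldc and 0.72 with Shmt2. These are descriptions over libraries that share populations, and carry no test. By the highest r over 17 libraries among 14072 genes, those most like Phgdh were Sp8 (0.90), Dbi and Ednrb (0.86 each), the last pair being on the radial glia list used here, and those most like Psat1 were Sox2 (0.86), on that list too, Mgst1 and Snap23 (0.85 each). Shmt1 was most like Tipin (0.91), Exo1 and Mcm3 (0.85 each), genes of DNA replication and repair, and Gldc most like Nrarp (0.90), E2f8 (0.86) and Magt1 (0.83). Psph was most like Cdca7 and Sall3 (0.87 each), Mthfd1 like Ebna1bp2 (0.87), Mthfd2 like Lrrn1 (0.88) and Eif3d (0.86) and Mthfd1l like Tubb6 (0.83), and Arvcf (0.82) was among the 3 most like Shmt2.

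Outside the 9, single genes of the pathway changed. Of 15 other folate cycle genes tested, 1 was lower in BP than in NSC (Aldh1l1, which oxidises formyl-tetrahydrofolate and is used as an astrocyte marker, -3.66 ± 0.77 SE, limma adjusted p = 0.0386) and none was called higher, beside 0.476% of all genes called. Aldh1l1 averaged 0 TPM in every BP library and in NSC at E10.5, E11.5 and E13.5, and 9.93 to 279 TPM in NSC from E15.5 on. It was lower in NBN than in NSC as well (-3.87 ± 0.92, limma adjusted p = 0.0421), and none of the 15 was called higher there, where 1.66% of all genes were called. Of the 6 partners of glycine cleavage, Gcsh, its lipoyl carrier, fell in NBN (-1.24 ± 0.30) and the other 5 were not called. With age in NSC, where 1.36% of all genes were called, Aldh1l1 rose by 0.82 ± 0.10 per day; of 12 methionine cycle and transsulfuration genes, Cbs, which condenses serine with homocysteine, rose by 0.75 ± 0.18 per day, and Ahcy, which cleaves adenosylhomocysteine, fell by 0.44 ± 0.07 per day. Ahcy averaged 191 TPM in NSC at E10.5 and 5.40 TPM at P1, and Cbs 2.05 TPM at E10.5 and 222 TPM at P1. In dividing cells Tyms, thymidylate synthase, was higher by 1.24 ± 0.24, 1 of 15 folate genes, beside 1.62% of all genes. Of the 10 transport genes, 16 Atf4 response genes and 10 purine synthesis genes tested none was called in BP or in NBN against NSC, and medians over these lists lay between -0.37 and 0.43 log2 units there.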

How the data were processed

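Single cells of 3 sorted populations were sequenced after SMARTer amplification and Nextera XT library preparation, per the labels. The deposited values are TPM per gene and cell, which the authors made with kallisto 0.43.0, and GRCm38.p2 and mm10 are the builds named, per the submitters' processing notes. In 7 cells with few genes the deposited values are whole numbers, a score by unit, and were averaged with the TPM of the other cells. No per-sample column was left unused (0). Cells were averaged per population and stage, and limma 3.58.1 (R 4.3.3; lmFit and eBayes with a trend) was run on log2(mean TPM + 1) of genes at 1 TPM or more in at least 4 libraries, with population and age as terms (an age slope per population for the slopes), two-sided, Benjamini-Hochberg adjusted over all genes tested, at 0.05. Postnatal age was 18.5 plus the labelled day, P0 being 1. Classes of cells were compared with the library as a block. Scripts were tested on simulated data with changes of known size. For BP against NSC, 7.46% of genes changed by 1 log2 unit were called, 35.8% at 2 and 90.9% at 4. For neuron-profile cells 12.0% were called at 2 log2 units and 65.0% at 4. For age in NSC 5.97% were called at 0.2 log2 units per day and 59.7% at 0.4. A member that was not called may therefore still differ by such amounts. Shares, exact binomial intervals and correlations were computed with SciPy 1.17.1 and pandas 2.3.3, in Python 3.11.15 (NumPy 2.4.6). Cells of another type held at least 3 genes of that type's list at 10 TPM or more. Text names all 9 members, list genes that passed (at most 8 a comparison) and, per member, up to 3 most like genes, of which some are not reported here. The members and lists were chosen with earlier results of these data known. Alternatives were a pseudocount of 10, no filter, quantile normalization, other averages, other cell and stage subsets, and each library left out. Intervals and limits cover counting error only.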

Additional observations from a re-analysis of the deposited data

How the results depend on the processing

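Between populations, no paired analysis was possible because replicate numbers name cells of 1 library and pair no libraries. Classes of cells were compared within libraries, with the library as a block. Stages do recur between populations, and with stage as a factor 0 members were called in BP and 1 in NBN (Phgdh, -5.54, limma adjusted p = 0.0234), as with linear age. For log2 differences, 305 of the results under other settings and 459 with 1 library left out kept direction and side of the threshold, while 8 and 7 turned, 23 and 11 newly passed it and 4 and 4 no longer did. Against NSC, the members called in BP, 0 with all libraries, numbered 1 with a pseudocount of 10, 1 with quantile normalization, 1 without cells of under 1000 genes, 4 without neuron-profile cells in NSC and 3 without both NSC E15.5 and NBN P3. That last choice, and leaving out cells by gene number or by other markers, was made after seeing the data. In NBN, 1 member was called, against 2 from E16.5 on, 2 without both libraries, 3 without neuron-profile cells in NSC, 0 with cells averaged on the log2 scale and 0 with no filter. That average called 4 members for age in NSC, 0 for age in NBN, 3 for neuron-profile cells and 4 for dividing cells; 0 were called for age in NBN without both libraries. With 1 library left out, counts ran between 0 and 2 for BP, NBN and age in NBN, between 0 and 1 for dividing cells, and stayed at 0 for the other comparisons. For these fits, and for settings whose share of all genes called is not given above, that share is not reported here. A gain of members there cannot be told from a general gain in calls. Uncalled differences that turned were Mthfd1l in BP (0.31 from E16.5 on), Mthfd2 in NBN (0.38 with stage as a factor, 0.28 without both libraries, -0.91 to 0.41 with 1 library left out), Mthfd1l in NBN (0.051 from E16.5 on, 0.013 on the log2 average, -0.69 to 0.18 with 1 left out), Shmt2 in neuron-profile cells (-1.16 without cells near the divide, -0.56 on the log2 average, -0.64 without cells with other markers, -0.10 to 0.41 with 1 left out) and Mthfd1l there (-0.061 to 0.0092, in the 2 of 5 fits that tested it). The cause was not tested. Depth is unknown, so a gene at 0 in a cell may be missed.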
